A study of Homo sapiens with 8 samples.

Results

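The MYC and MAX network is a set of basic helix-loop-helix leucine zipper proteins that share MAX, or its relative MLX, as the partner needed for DNA binding. MYC-MAX dimers activate transcription at the E-box CACGTG, whereas MXD1, MXI1, MXD3, MXD4, MNT and MGA pair with MAX and mainly repress at the same sequence. Most MXD proteins classically rise as myeloid cells leave the cycle and differentiate while MYC falls, and a block of that differentiation defines acute promyelocytic leukemia.

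PML::RARA peaks were examined at 9 genes of this network, MYC, MAX, MXD1, MXD3, MXD4, MXI1, MNT, MGA and MLX. The peaks taken were those that carry the symbol of 1 of these genes, called labelled peaks here, and unlabelled peaks whose centre lay within 50 kb of the centre of a labelled peak of the network. This gave 22 peaks of 15412 in the list, 8 of them labelled and 14 unlabelled neighbours. The symbols were given by the authors where the apex of a peak, its position of largest signal, overlapped a promoter, so a position near a start site is part of how the labelled peaks were chosen.

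The peaks came from the monocytic line U937-PR9, which carries a PML::RARA transgene on a zinc-inducible promoter. Cut&Run, in which an antibody guides a nuclease to cut around the bound protein, was run with an anti-PML-RARA or an anti-RARA antibody after 5 h in 100 μM ZnSO4 (induced) or in water (uninduced), with 2 replicates in each of the 4 groups. The peaks described were taken as those of induced cells with the anti-PML-RARA antibody, an assignment that rests on the name of the list and its number of peaks, since no sample is named in it. The other lists were not analysed here. In this single line, effects of zinc and of the transgene cannot be told apart. The list keeps peaks reproducible across the replicates and holds 1 value per peak, so no spread between replicates could be given, the read depth is unknown, and every value below is a description without a test. Of 8 myeloid marker genes, 6 carried a labelled peak (CD33 and LYZ did not, and the highest were at ITGAM, height 42, and MPO, height 34), against 0 of 8 markers of other tissues. A peak is not a measure of expression.

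PML::RARA peaks lay at the promoters of nearly the whole network. A labelled peak was found at 8 of the 9 genes, 1 per gene, beside 29.9% of all 20149 protein-coding genes. MYC itself had none, although unlabelled peaks covered its start sites. Among the 8, MXD4, MXD1, MXD3 and MNT held the 4 highest peaks, while MGA and MLX were below the middle of the list in height.

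The E-box that the network's own dimers bind was read in the labelled peaks. The sequences below surround the E-box nearest to the apex outside annotated UTRs at the 6 genes whose labelled peak holds one, and at the unlabelled peak beside the MGA promoter. Each is written 5′ to 3′ on the strand of the gene, from hg19, with CACGTG in capitals.

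MXD1, chr2:70141370-70141469 (plus strand): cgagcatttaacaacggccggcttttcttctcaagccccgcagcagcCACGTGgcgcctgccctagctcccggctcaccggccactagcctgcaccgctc
MXD4, chr4:2264022-2264121 (minus strand): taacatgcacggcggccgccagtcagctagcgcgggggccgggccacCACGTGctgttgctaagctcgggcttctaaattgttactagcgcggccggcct
MXD3, chr5:176739230-176739329 (minus strand): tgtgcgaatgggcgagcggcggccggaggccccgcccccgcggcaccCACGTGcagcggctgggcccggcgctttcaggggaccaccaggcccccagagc
MAX, chr14:65569532-65569631 (minus strand): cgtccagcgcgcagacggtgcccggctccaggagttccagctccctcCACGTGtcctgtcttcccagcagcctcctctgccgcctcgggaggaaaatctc
MNT, chr17:2304495-2304594 (minus strand): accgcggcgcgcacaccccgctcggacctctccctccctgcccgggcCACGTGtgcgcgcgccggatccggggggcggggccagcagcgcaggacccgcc
MLX, chr17:40719021-40719089 (plus strand): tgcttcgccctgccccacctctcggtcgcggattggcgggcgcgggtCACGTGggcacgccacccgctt
unlabelled MGA peak, chr15:41954122-41954221 (plus strand): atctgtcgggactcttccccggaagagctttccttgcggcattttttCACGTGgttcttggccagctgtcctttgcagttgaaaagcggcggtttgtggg

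Within 300 bases centred on the apex, CACGTG stood in 4 of the 8 labelled peaks, those of MXD4, MXD3, MAX and MLX, but in only 2 of 8 when the window was centred on the middle of the peak instead. Around the apex, the share among all 7169 labelled peaks was 10.2%, and among all unlabelled peaks it was 7.52%. In the MLX peak the E-box lay 50 bp from the apex and 19 bp upstream of the nearest start site. The corresponding distances were 72 bp from the apex and 236 bp upstream of the start at MXD4, and 123 bp and 381 bp at MXD3. The MAX peak held 3 copies, at 99, 199 and 600 bp from the apex, and the nearest of them lies in an annotated UTR and is not printed.

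Over whole peaks, CACGTG was found at 6 of the 8 genes, beside 26.7% of all labelled peaks. The network's peaks were wider than most and so held more sequence in which it could occur. The MXD1 peak added 1 copy at 579 bp from the apex, and the wide MNT peak added 3, at 386, 994 and 1905 bp. No copy stood in the labelled peaks of MXI1 and MGA. The unlabelled peak inside MGA held 3, of which 2 lay in the 300 bases around its apex, at 17 and 36 bp.

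Other short motifs were read in the same 300 bases on both strands. GGGCGG, the GC box bound by SP and KLF factors, was in 8 of 8 labelled network peaks, beside 70.9% of all labelled and 22.2% of all unlabelled peaks. AGGTCA, 1 form of the half-site of retinoic acid receptors, was in 0 of 8, beside 13.0% of all labelled peaks. Other forms of this half-site were not read. The ETS core GGAAGT (31.7% of all labelled peaks), the RUNX core TGTGGT (12.1%) and the AP-1 site TGANTCA (6.12%) were also in 0 of 8. Over whole peaks they did occur: GGAAGT in 5 of 8 (61.7% of all labelled peaks), AGGTCA in 3 (42.2%), TGANTCA in 3 (18.4%) and TGTGGT in 2 (37.1%). The peaks with AGGTCA were those of MXD3, MNT and MLX. These windows were rich in G and C, with a median of 68.5% (58.7% to 71.3%), beside 64.7% over all labelled peaks and 58.3% over the whole list. Among the 14 unlabelled neighbours, TGTGGT was in 6 (35.1% of all unlabelled peaks), GGGCGG in 5 (22.2%), GGAAGT in 4 (42.1%), AGGTCA in 2 (23.3%) and TGANTCA in 1 (23.9%). CACGTG was in 1 of the 14, the MGA peak printed above, beside 7.52% of all unlabelled peaks. The absence of these letters says nothing of binding outside the window.

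Peak height, the largest signal within a peak, and width differed widely among the 8 genes. Height had a median of 36 and ran from 20 to 55, beside a median of 25 in the list and 26 in all labelled peaks. Width had a median of 1704.5 bp and ran from 1038 to 3945 bp, beside 829.5 bp in the list and 1108 bp in all labelled peaks. All 8 were wider than the list's median and 5 were higher. Against the medians of labelled peaks alone, 6 were wider and 5 higher.

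**Figure D1:**
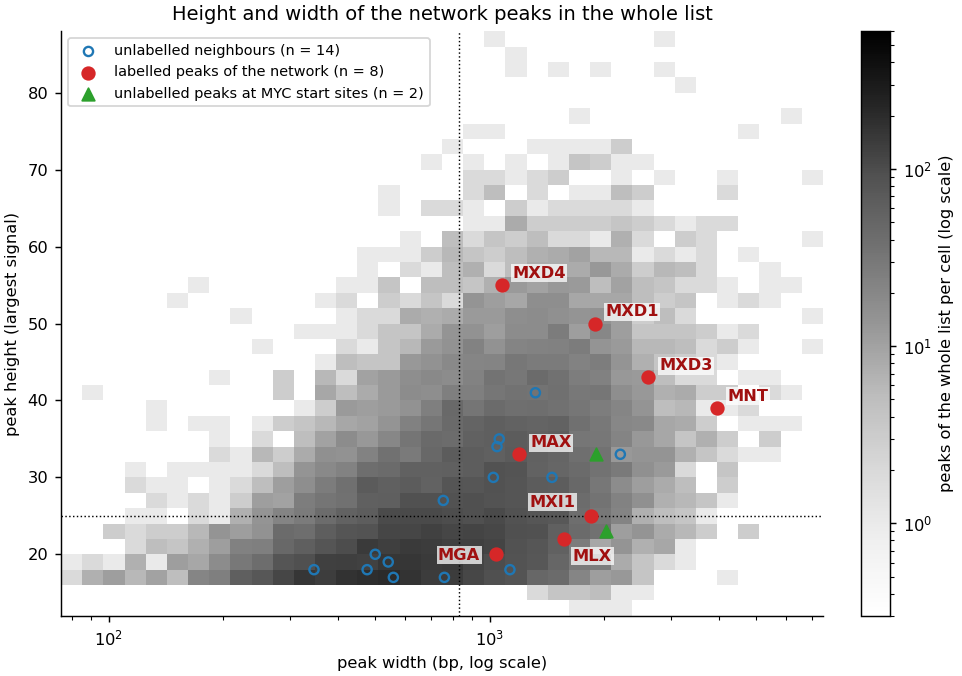
Height (largest signal) against width (bp, log scale) of the 8 labelled network peaks (red), their 14 unlabelled neighbours (blue circles) and the unlabelled peaks with an apex within 1 kb of a MYC start site (green triangles), over the whole list of 15412 peaks (grey, number per cell on a log scale). Dotted lines mark the list's medians of 25 and 829.5 bp, and all labelled network peaks lie to the right of the width median, from MGA at 1038 bp to MNT at 3945 bp.

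The MXD genes encode short-lived MAX partners that recruit the SIN3 corepressor, and most of them, though not MXD3, replace MYC in differentiating cells. Their 4 labelled peaks had a median height of 46.5 and a median width of 1864.5 bp. The MXD4 peak (chr4:2263804-2264878) was the highest of the network at 55, which ranked 319 of 15412, a place shared by 42 peaks. Its width of 1075 bp ranked only 5304, so it was tall for its width: 97.6% of the 1541 peaks closest to it in width were lower. The signal per base, 18.9, was the highest of the network.

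MXD1, also known as MAD1, came next. Its peak (chr2:70141195-70143081) had a height of 50, rank 625 shared by 81 peaks, and a width of 1887 bp, rank 1286. The apex lay 174 bp upstream of the nearest MXD1 start site, in the intron of a longer MXD1 transcript. This promoter was the simplest of the network, since no other peak, labelled or not, had its centre within 50 kb.

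The MXD3 peak (chr5:176737705-176740316) was both high and wide. MXD3 encodes the member usually linked to S phase and proliferating cells. Its height of 43 ranked 1386, a value shared by 167 peaks, and its width of 2612 bp ranked 383. The total signal of 40575, summed over the peak, ranked 181. The apex fell 504 bp upstream of the canonical start but 355 bp downstream of the nearest annotated MXD3 start, in an MXD3 intron.

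MXI1 differed from its relatives. Its peak (chr10:111985343-111987184) reached a height of 25, rank 7226 shared by 591 peaks, which was the list's median, with a width of 1842 bp, rank 1403. Only 21.4% of peaks of like width were lower. The apex was not at the start of the canonical transcript but 18241 bp inside it, 147 bp upstream of an internal start site from which shorter MXI1 transcripts begin.

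MNT and MGA are the large members of the repressive arm. MNT is expressed in cycling and resting cells alike as a steady antagonist of MYC. Its labelled peak (chr17:2301830-2305774) was the widest of the network at 3945 bp, rank 65, and its total signal of 58520 ranked 41 of 15412. The height was 39, rank 2104 shared by 209 peaks. Against peaks of like width this height was near the middle, with 59.9% lower.

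MGA carries a T-box as well as the helix-loop-helix domain and forms part of a variant Polycomb complex, PRC1.6. Its labelled peak (chr15:41952220-41953257) had the lowest height of the network, 20, rank 10691 shared by 797 peaks, and the smallest width, 1038 bp, rank 5595. The apex lay 17 bp downstream of the nearest start site, in a UTR.

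MAX and MLX, the shared partners, lay lower than most MXD peaks. The MAX peak (chr14:65568827-65570023) had a height of 33, rank 3709 shared by 325 peaks, and a width of 1197 bp, rank 4336. The MLX peak (chr17:40718557-40720123) had a height of 22, rank 9138 shared by 741 peaks, and a width of 1567 bp, rank 2237. MLX thus resembled MXI1 in being wide but low, with 16.1% of peaks of like width below it. Without replicate values, neighbours in this order of heights, such as MLX at 22 and MGA at 20, cannot be separated.

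The unlabelled neighbours were lower and narrower than the labelled peaks, with a median height of 23.5 (17 to 41) and a median width of 892 bp (346 to 2204 bp). Over all unlabelled peaks the medians were 23 and 634 bp. For 8 of the 14, the nearest protein-coding gene was itself a member of the network, and the other 6 were nearer to other genes. The outermost, an intronic peak shared by MAX and FNTB, was 47.8 kb from the MAX peak, and the next one outside the limit was 58.5 kb from the MLX peak, with a height of 16.

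MNT was the gene whose surroundings held the strongest of them. A peak of height 41 (chr17:2299658-2300976, rank 1727 shared by 174 peaks, width 1319 bp, rank 3524) stood 853 bp from the labelled one, with its apex 145 bp upstream of another MNT start site. Its listed height was thus slightly above the 39 of the labelled peak, though without replicate values these heights cannot be separated. A further peak of height 33 (chr17:2295550-2297753, rank 3709) was 2204 bp wide, rank 728, in an MNT intron. The apices of all 3 peaks lay within 1 kb of an annotated MNT start, so peaks followed each other from the promoter into the gene.

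At MGA, too, an unlabelled peak was higher than the labelled one. It lay in an MGA intron 336 bp from the promoter peak (chr15:41953594-41954639), and was 34 high, rank 3401 shared by 308 peaks, and 1046 bp wide, rank 5525. This is the peak with 2 E-boxes beside its apex that is printed above. A second neighbour, over MGA coding sequence 35494.5 bp from the labelled peak, reached 18 in height, rank 12401, and spanned 477 bp, rank 12360. MGA therefore had the lowest labelled peak of the network but not the weakest surroundings.

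MXD3 had the most neighbours, 4. The strongest (chr5:176733921-176735378) covered coding sequence of MXD3 with a height of 30, rank 4820 shared by 391 peaks, a width of 1458 bp, rank 2768, and a total signal of 21044, above 90.9% of the list. Between it and the promoter stood a low intronic peak of height 17, rank 13294, and width 761 bp, rank 8508. The remaining 2 were at other genes. One near RAB24 was 27 high (rank 6155) and 756 bp wide (rank 8565), and one in a UTR of NSD1 was 19 high (rank 11488) and 542 bp wide (rank 11399). Peaks labelled RAB24 (24 and 23), LMAN2 (31) and RGS14 (27) were also within 50 kb, all lower than the MXD3 promoter.

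The remaining genes had few and mostly weak neighbours. MXI1 had 2 in introns of its longer transcripts, of heights 17 (rank 13294, width 559 bp, rank 11164) and 20 (rank 10691, width 501 bp, rank 12007). The single neighbour of MAX was 30 high, rank 4820, and 1023 bp wide, rank 5715. At MXD4 the neighbour, in an intron of ZFYVE28, was 35 high, rank 3088, and 1060 bp wide, rank 5420, and 2 peaks labelled HAUS3, a subunit gene of the augmin complex, had heights of 50 and 19. The MLX neighbours both had a height of 18, rank 12401, with widths of 346 bp (rank 14067) near NAGLU and 1131 bp (rank 4832) over HSD17B1.

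MLX was the one gene whose labelled peak was lower than other labelled promoters within 50 kb. PSMC3IP reached 40, RETREG3 37 and NAGLU 26, while ATP6V0A1 had 20 and COASY 18. At MGA the only other labelled peak was that of MIR626, with a height of 16.

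**Figure D2:**
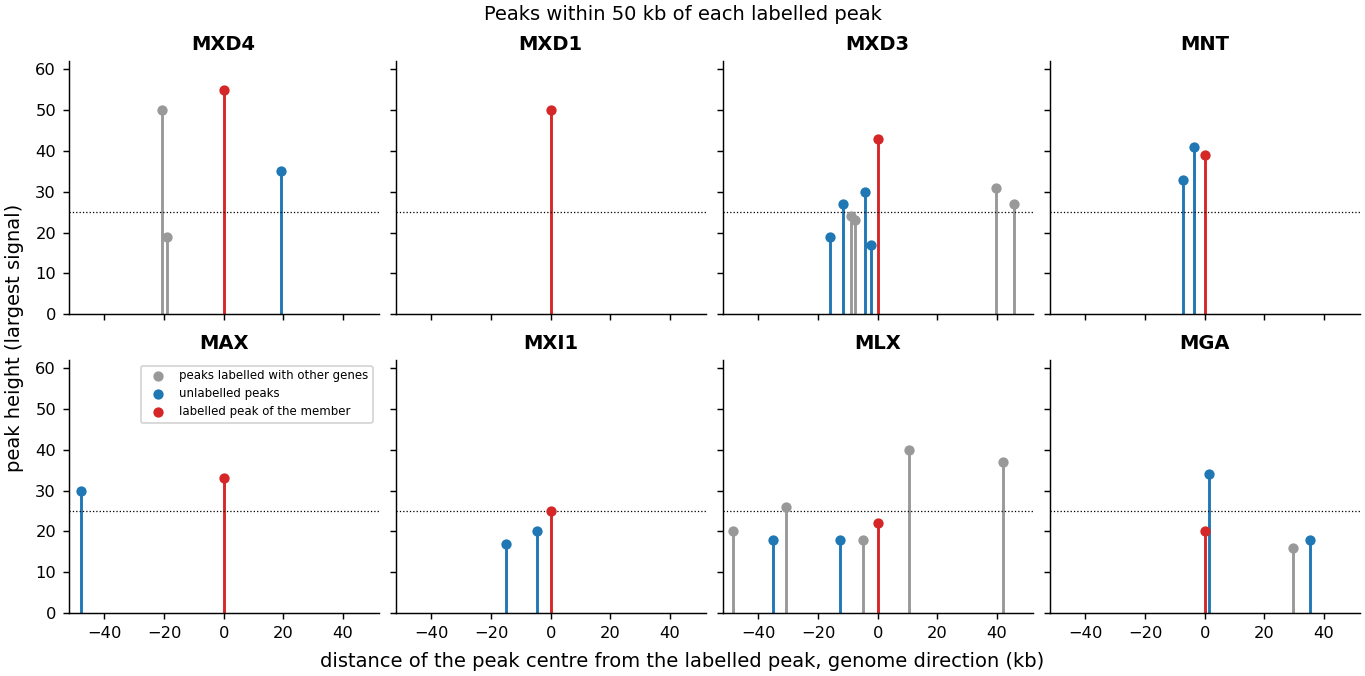
Peaks around each labelled network peak, with the distance between peak centres in kb (genome direction) on the x axis and height (largest signal) on the y axis. Red marks the labelled peak of the member, blue its unlabelled neighbours and grey peaks labelled with other genes, with the list's median height of 25 dotted. MXD1 stands alone, and the peaks of height 41 at MNT and 34 at MGA are drawn above the labelled ones of 39 and 20. Without replicate values, 41 and 39 cannot be separated.

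MYC, the activator at the centre of the network, carried no labelled peak but was not free of signal. It lies on chromosome 8 (chr8:128747680-128755197, plus strand), and 5 unlabelled peaks had their centre within 50 kb of its first start site. The strongest (chr8:128747152-128749059) had its apex 148 bp upstream of that first start, where CASC11 also has an intron. Its height of 33, rank 3709 shared by 325 peaks, equalled that of the MAX peak. Its width of 1908 bp ranked 1244, and its total signal of 26903 was above 95.5% of the list, close to that of MXD1 at 26078.

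A second wide peak (chr8:128749506-128751522) lay over MYC itself, with a width of 2017 bp, rank 1018, and a height of 23, rank 8433 shared by 705 peaks. Its apex was 60 bp downstream of an internal MYC start site, in a UTR. The remaining 3 were smaller. The first, in an intron of CASC11, the long noncoding gene read in the opposite direction from the MYC promoter, was 23 high (rank 8433) and 622 bp wide (rank 10259). At the end of MYC a peak of 309 bp (rank 14469) was 16 high (rank 14278), and 24.4 kb from the start a peak of 820 bp (rank 7801) was 20 high (rank 10691). None of these peaks around MYC held CACGTG, even over its whole width.

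When a gene was counted by any apex within 1 kb of an annotated start site, whatever the label, all 9 network genes had a peak, beside 39.2% of protein-coding genes. MYC was thus 1 of 2054 protein-coding genes with such an apex and no peak carrying their symbol. Unlike at MYC, the apex could also belong to a peak labelled with another gene. Of 6546 symbols in the list, 6381 were found in the annotation used for start sites. Of all 8243 unlabelled peaks, 977 (11.9%) had an apex within 1 kb of a protein-coding start. Why the symbol is missing at these peaks was not tested.

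The wider MYC region was lopsided. Within 2 Mb of the first MYC start there were 22 peaks, 1 upstream and 21 downstream by the peak centre. The strongest peak at the MYC start counts as downstream by its centre, though its apex lay 148 bp upstream. The next peak upstream of the group at MYC was 2035 kb away. The noncoding gene PVT1, which follows MYC and hosts several microRNAs, held 5 of them, with heights from 19 to 39. The highest carried the label MIR1207 (chr8:129060578-129062775, width 2198 bp, 314 kb from MYC), and the single peak labelled PVT1 had a height of 20. Of 7 genes listed around MYC, PVT1 alone had a labelled peak, beside 29.9% of protein-coding genes. By an apex within 1 kb of a start the count was 2 of 7, beside 39.2% of protein-coding genes. These were PVT1, with 3 such peaks, the highest of 39, and CASC11, reached by an unlabelled apex.

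Farther out, 10 peaks lay between 1687 and 1973 kb downstream, and 9 of these had their apex in CCDC26, a long noncoding gene whose region is known for enhancers of MYC in blood cells. Their heights ran from 16 to 37. The highest (chr8:130603629-130604901) was 1857 kb from MYC with a width of 1273 bp, and the next, of height 35, was at 1847 kb. Both were thus higher than the peak at the MYC start, of height 33, though without replicate values such heights cannot be separated. Their total signals, 18581 and 7784, were below the 26903 of the peak at the MYC start. These are distances along the chromosome, and the peak list holds no measure of contact between these peaks and MYC. The authors also mapped promoter contacts in these cells by capture Hi-C, which was not used here.

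**Figure D3:**
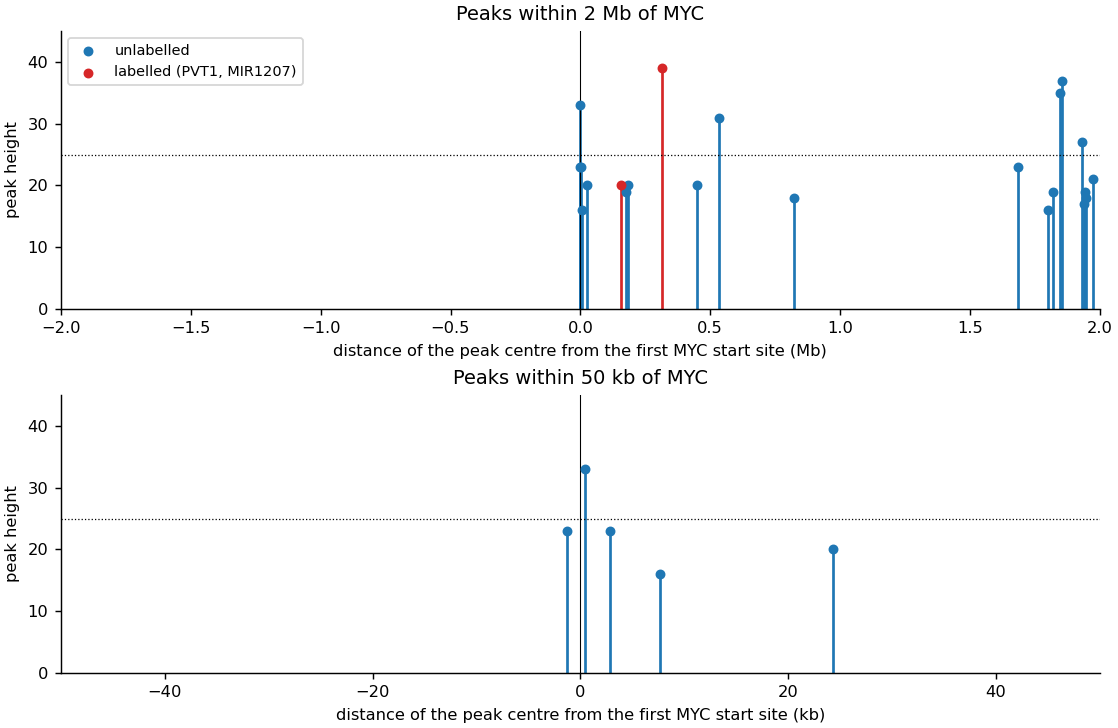
Peaks within 2 Mb (upper panel, distance in Mb) and within 50 kb (lower panel, distance in kb) of the first MYC start site, by the distance of the peak centre and by height (largest signal). Blue marks unlabelled and red labelled peaks (PVT1 and MIR1207), the dotted line the list's median height of 25. Of the 22 peaks, 21 lie downstream, and 10 of them form the group beyond 1 Mb.

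Genes that work with the network were counted in the same way. Over 6 lists with 64 distinct genes, 38 (59.4%) carried a labelled peak, beside 29.9% of protein-coding genes. An apex within 1 kb of a start was found at 47 of the 64, beside 39.2% of protein-coding genes. None of these shares was tested against other genes.

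The corepressors that MXD and MNT recruit had labelled peaks at 6 of 9 genes, with a median height of 32. SIN3A, the scaffold bound by the MXD proteins, had one of the largest peaks in the list, 77 high and 6203 bp wide, and SAP30, another subunit of the SIN3 complex, had one of height 37. SIN3B, SUDS3 and RBBP4 had no labelled peak, though a peak of height 34 without its symbol had its apex at RBBP4. SIN3A thus exceeded every network gene in both height and width.

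Genes of MYC turnover had labelled peaks at 9 of 11, with a median height of 32. GSK3B, a kinase that marks MYC for degradation, had a height of 50, and PPP2CA, a phosphatase subunit of the same pathway, had 42. SKP2 and USP28 had no labelled peak, and a peak of height 31 without its symbol had its apex at SKP2. For the coactivators the count was 8 of 13 with a median of 31, led by CDK9 (55) and CCNT1 (53), which together form the elongation factor P-TEFb. CDK9 carried 2 labelled peaks, and the one of 55 had its apex over 1 kb from any annotated CDK9 start, while the one within 1 kb had a height of 24.

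MYC targets carried labelled peaks at 10 of 16 genes, with a median height of 33.5. CDK4 had the highest at 53, and the transferrin receptor TFRC and lactate dehydrogenase LDHA had 38 each. By an apex within 1 kb of a start the count was 14 of 16, beside 39.2% of protein-coding genes. Counted so, turnover genes had 10 of 11, coactivators 9 of 13 and corepressors 7 of 9. The PRC1.6 complex had 8 of 14 and the related helix-loop-helix genes 1 of 4. By label, the PRC1.6 complex of MGA had 6 of 14 with a median of 21, led by HDAC1 (34) and HDAC2 (24), which are also among the corepressors. Peaks without their symbol had an apex within 1 kb of a start at CBX3 (height 44) and YAF2 (19). Of the 4 related helix-loop-helix genes, only MLXIP, a partner of MLX, had a peak (height 24, width 2083 bp), while MYCN, MYCL and MLXIPL had none by label or by apex.

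**Figure D4:**
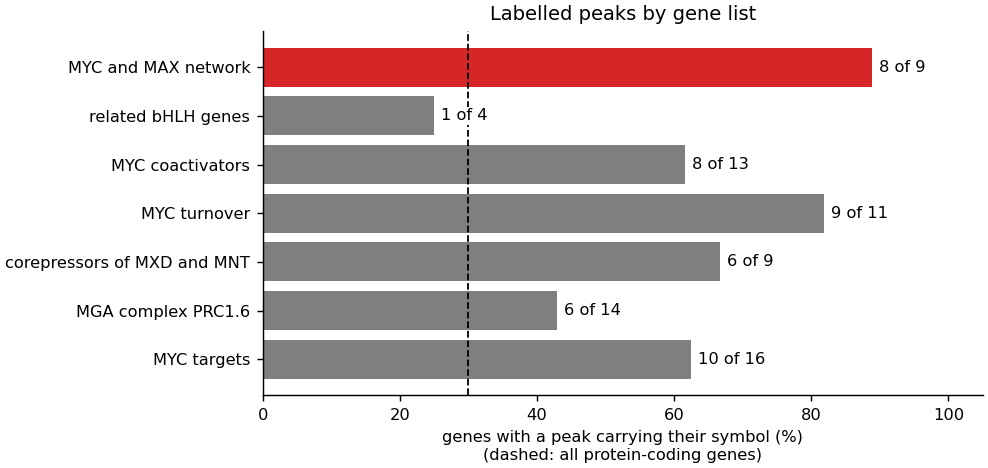
Share of genes (%) with a labelled peak in the MYC and MAX network (red, 8 of 9) and in 6 lists of genes that work with it (grey), with the numbers of genes beside the bars and the share of all protein-coding genes, 29.9%, dashed. The network stands next to the list of MYC turnover, 9 of 11, and the related helix-loop-helix genes are the lowest with 1 of 4.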

How the data were processed

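Cut&Run with the anti-PML-RARA antibody in induced U937-PR9 cells (2 replicates) was analysed. The authors used Trimmomatic for trimming, Bowtie2 for alignment to hg19, Samtools for removal of duplicates and Bedtools for removal of blacklisted reads. Peaks came from SEACR with paired controls and the norm union setting, and those with an IDR, a measure of reproducibility, under 0.05 were retained. Tool versions are not given in the sources used here. The authors deposited a total signal and a score, the largest signal, per peak, which the column names do not describe and which were told apart by their values. Whether this signal was scaled, and from which replicate it came, is not stated. The authors assigned gene symbols from UCSC known genes of hg19 at the apex.

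Peaks were ranked from the largest value, with ties sharing the best rank, and a percentage of the list is the share of peaks with a smaller value. For 34 peaks without an apex end, its start was used. No peak was filtered out. Start sites and gene parts came from GENCODE release 44 mapped to GRCh37, and sequences from the GRCh37 genome, read with pysam 0.24.0 under Python 3.11.15 (pandas 2.3.3, numpy 2.4.6, matplotlib 3.10.9). Ranking, neighbour and motif functions were checked on made-up peaks with known answers. The members and the other gene lists were chosen with earlier results of these data known. All members were named, with each neighbour, and from each other list the 2 genes with the highest labelled peak and, where 3 or fewer, those without one, as well as genes with a labelled peak within 50 kb. Naming all 14 neighbours, the peaks around MYC, CBX3 and YAF2 went beyond this rule and was decided after their values were seen. The alternatives concerned the label, the window, the measure ranked, the reference for ranks and the motif window.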

Additional observations from a re-analysis of the deposited data

How the results depend on the processing

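Alternatives to the choices made, 22 in all, gave these values. The 14 unlabelled neighbours became 6 within 10 kb, 24 within 100 kb and 8 when the nearest protein-coding gene had to be a member. The median share of the list lying below the labelled peaks in height, 79.4%, became 76.2% among labelled peaks alone, 85.5% by total signal, and 61.6% within the tenth of the list nearest in width. The median share narrower, 88.2%, became 80.5% among labelled peaks alone. CACGTG was in 4 of the 8 labelled peaks around the apex, in 2 around the peak centre and in 6 over whole peaks. Merging peaks under 1 kb apart gave 10 neighbours. The number of members with a peak ranged from 6, with only peaks at or above the list's median height, to 9, by start site or by a peak within 10 kb of the gene. The count of the 6 other lists by start site, 47 for 38, was chosen after seeing the data.

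No paired analysis was possible because only 1 value is listed per peak, with its replicate not stated. Leave-one-out values were not computed for this reason. Depth is unknown, so a gene without a peak, such as MYCN, had none past the authors' threshold, which does not show that PML::RARA was absent there.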
